A study of Mus musculus with 12 samples.

Results

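Transcripts of the cell cycle cyclins and of their kinase Cdk1 were followed in RAW264.7 cells, a mouse macrophage-like line derived from a virus-induced tumour. The genes were chosen by symbol, as cyclins of the D, E, A, B and F types together with Cdk1. They numbered 10 (Ccnd1, Ccnd2, Ccnd3, Ccne1, Ccne2, Ccna2, Ccnb1, Ccnb2, Ccnf and Cdk1) of the 32688 genes in the count table. Ccna1 and Ccnb3, also of the A and B types, were not included and are counted below with the other cyclins. All 10 were among the 18066 genes that passed the filter on low counts, and the lowest count of any of them in any library was 166. The study asked how loss of the related transcription factors TFEB and TFE3 alters the transcriptome after DNA damage. Null cells, the control line, and TFEB/TFE3 double knockout (DKO) cells made with CRISPR were either kept as controls or exposed for 8 h to 100 µM etoposide, a topoisomerase II poison that leaves breaks in DNA. Each of the 4 groups (Null control, Null etoposide, DKO control and DKO etoposide) held 3 libraries, and all 12 came from RAW264.7 cells. The study describes the etoposide libraries as independent samples, and neither the labels nor its methods say whether the libraries of a group were separate cultures, so p-values measure the spread between these libraries, which may be technical. Each genotype was represented by a single line, and a difference between lines cannot be told apart from a difference between genotypes.

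Cyclins are the regulatory subunits of cyclin-dependent kinases, and their transcripts and proteins come and go with the stage of division. D-type cyclins pair with Cdk4 and Cdk6 in early G1, E-type cyclins with Cdk2 at entry into DNA synthesis, cyclin A with Cdk2 and then Cdk1, and B-type cyclins with Cdk1 at entry into mitosis. Cyclin F differs from the rest, since it serves as the substrate adaptor of a ubiquitin ligase and not as a kinase subunit. Genes for the mitotic cyclins and Cdk1 commonly carry, just ahead of their start sites, CCAAT boxes, the letters bound by NF-Y, and a cell cycle genes homology region (CHR), to which the DREAM and MuvB complexes bind.

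Promoter sequence was at hand for 6 of the 10 genes, in 7 windows of 300 bases, because Ccnd3 had 2 start sites (RefSeq, GRCm38.p6). Ccna2, Ccnd1, Ccnd2 and Ccne2 had no entry in the set of promoters used here, which does not mean that RefSeq holds no start site for them. The stretches from 140 bases before to 20 bases after the RefSeq start are printed 5′ to 3′ on the strand of the gene, to set those of the 6 with the deepest loss in DKO cells (Ccnb2, Ccnb1, Cdk1 and Ccnf) beside 2 genes whose responses in the lines were not told apart (Ccne1 and Ccnd3). Capitals mark matches to CCAAT, to a CHR (TTTGAA or TTCGAA or TTTAAA), or to an E2F site (TTTGGCGC or TTTCGCGC), on either strand and with overlapping matches allowed. They lie at chr13:100786467-100786626 (Ccnb1, minus strand), chr9:70421535-70421694 (Ccnb2, minus), chr10:69352893-69353052 (Cdk1, minus), chr17:24251390-24251549 (Ccnf, minus), chr7:38107471-38107630 (Ccne1, minus) and chr17:47593327-47593486 (Ccnd3, plus, downstream start).
Ccnb1: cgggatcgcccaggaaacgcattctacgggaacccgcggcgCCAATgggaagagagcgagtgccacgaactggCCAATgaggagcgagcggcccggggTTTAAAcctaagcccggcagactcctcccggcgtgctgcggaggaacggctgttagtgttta
Ccnb2: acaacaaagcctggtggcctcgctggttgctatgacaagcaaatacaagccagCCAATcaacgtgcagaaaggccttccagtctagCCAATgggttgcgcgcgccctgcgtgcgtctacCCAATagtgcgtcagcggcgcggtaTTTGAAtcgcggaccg
Cdk1: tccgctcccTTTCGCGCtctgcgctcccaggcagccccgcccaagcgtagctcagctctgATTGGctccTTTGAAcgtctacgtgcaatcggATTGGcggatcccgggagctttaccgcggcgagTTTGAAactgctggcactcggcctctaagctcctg
Ccnf: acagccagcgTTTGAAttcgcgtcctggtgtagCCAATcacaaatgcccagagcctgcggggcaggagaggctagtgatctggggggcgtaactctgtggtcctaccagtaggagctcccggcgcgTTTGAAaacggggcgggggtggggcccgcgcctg
Ccne1: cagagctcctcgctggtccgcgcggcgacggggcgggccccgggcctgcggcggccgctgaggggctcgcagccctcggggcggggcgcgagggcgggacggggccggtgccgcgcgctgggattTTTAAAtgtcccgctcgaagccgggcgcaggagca
Ccnd3: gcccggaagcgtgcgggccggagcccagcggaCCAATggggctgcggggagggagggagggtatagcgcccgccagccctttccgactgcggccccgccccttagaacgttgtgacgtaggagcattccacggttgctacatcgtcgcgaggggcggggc

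Ccnb1, Ccnb2, Cdk1 and Ccnf each held at least 2 CCAAT boxes and at least 1 CHR in the 300-base window, a combination present in 3.33% of 32851 promoters of the same length. Counted from the start site, the CCAAT boxes of Ccnb1 began at −99 and −67 and its CHR at −42. Ccnb2 had CCAAT boxes at −87, −54 and −21 and CHR matches at −167 and 5 (within the transcript). In Cdk1 the boxes lay on the opposite strand at −208, −80 and −48, with TTTGAA at −71 and −15 and the E2F letters TTTCGCGC at −131. Neighbouring CCAAT boxes were 32 bases apart in Ccnb1 and in the proximal pair of Cdk1, 33 bases apart in Ccnb2 and 40 bases apart in Ccnf. Ccne1 held a CHR match alone, Ccnd3 held a CCAAT box alone at its downstream start and no match at its upstream start. Of all promoters, 37.4% held CCAAT, 28.8% a CHR match and 0.813% an E2F match. The E-box CACGTG, letters that TFEB and TFE3 can bind, was in 7.15% of all promoters and was not found in these 7 windows. A match is a description of the letters in the window and does not show binding.

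Library totals ran from 29837255 to 61809316 counts. Levels are given as CPM, the count of a gene scaled to a common library total, with library sizes adjusted by the trimmed mean of M values (TMM), whose factors ranged from 0.939 to 1.03. Tfeb, the first target, was at 16.8 ± 0.286 CPM in control Null and 4.40 ± 1.12 CPM in control DKO libraries (SD, n = 3), and Tfe3, the other target, at 104 ± 14.8 and 37.8 ± 5.71 CPM. Both were lower in DKO cells with and without the drug (log2 differences of −1.95 and −0.79 for Tfeb and −1.47 and −1.43 for Tfe3 in control and etoposide cells). Both targets were still counted in every DKO library. The titles of the DKO etoposide libraries carry the word MEFs (mouse embryonic fibroblasts) and leave out DKO, whereas the labelled tissue is RAW264.7 and the labelled genotype is the double knockout, from which their group was taken. All 8 macrophage markers were detected in every group and summed to between 4193 and 5132 CPM per library, whereas 8 fibroblast markers, among them Col1a1 and Dcn, summed to at most 2.04 CPM in any library and to between 1.01 and 1.20 CPM in the DKO etoposide libraries. The macrophage markers differed between the lines in both directions, with 4 lower and 2 higher in control DKO cells (8.39% and 10.9% of all genes). After etoposide 2 were lower and 2 higher (17.8% and 15.9% of all genes). Fcgr1, the lowest of the 8 in every group, was at 28.4 CPM in the lowest DKO control and 4.72 CPM in the lowest DKO etoposide library. The lowest Null control and Null etoposide libraries held it at 66.9 and 36.3 CPM. The median SD of log2 CPM over genes was 0.209 among Null control, 0.0901 among Null etoposide, 0.235 among DKO control and 0.155 among DKO etoposide libraries.

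Etoposide lowered most of these transcripts in both lines, and the responses of Ccna2, Ccnb1, Ccnb2, Ccnf, Cdk1 and Ccne2 were more negative in DKO cells, although Ccnf did not pass the test in Null cells. In Null cells 7 of the 10 genes fell and none rose (adjusted p under 0.05, limma-trend, Benjamini-Hochberg over 18066 genes), with a median log2 difference of −0.48 against 0.03 for all genes. Over all genes tested, 18.7% fell and 20.9% rose in this comparison. In DKO cells 9 of the 10 fell and none rose, with a median of −1.85 against 0.03 for all genes. There, 19.1% of all genes fell and 20.2% rose. In bulk RNA, fewer cells in the stage that makes a transcript and less of that transcript per cell cannot be told apart.

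Between the lines, control cells differed at 3 of the 10 genes, of which Ccnd1 and Ccne2 were higher and Ccnd2 lower in DKO cells, with a median log2 difference of −0.03 against 0.00 for all genes. Of all genes, 8.39% were lower and 10.9% higher in control DKO cells. After etoposide 7 were lower and 1, Ccnd1, was higher in DKO cells, with a median of −2.19 against −0.01 for all genes. The corresponding shares over all genes were 17.8% and 15.9%. The response itself, tested as the interaction of genotype and drug (the DKO response minus the Null response), was more negative in DKO cells for 6 genes (Ccnb2, Ccnb1, Ccna2, Ccnf, Cdk1 and Ccne2) and more positive for none. Their share compares with 6.39% of all genes with a lower and 3.07% with a higher interaction, and the median over the 10 was −1.48 against −0.01. The comparisons share libraries, so their values for a gene are given side by side and are not independent.

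**Figure D1:**
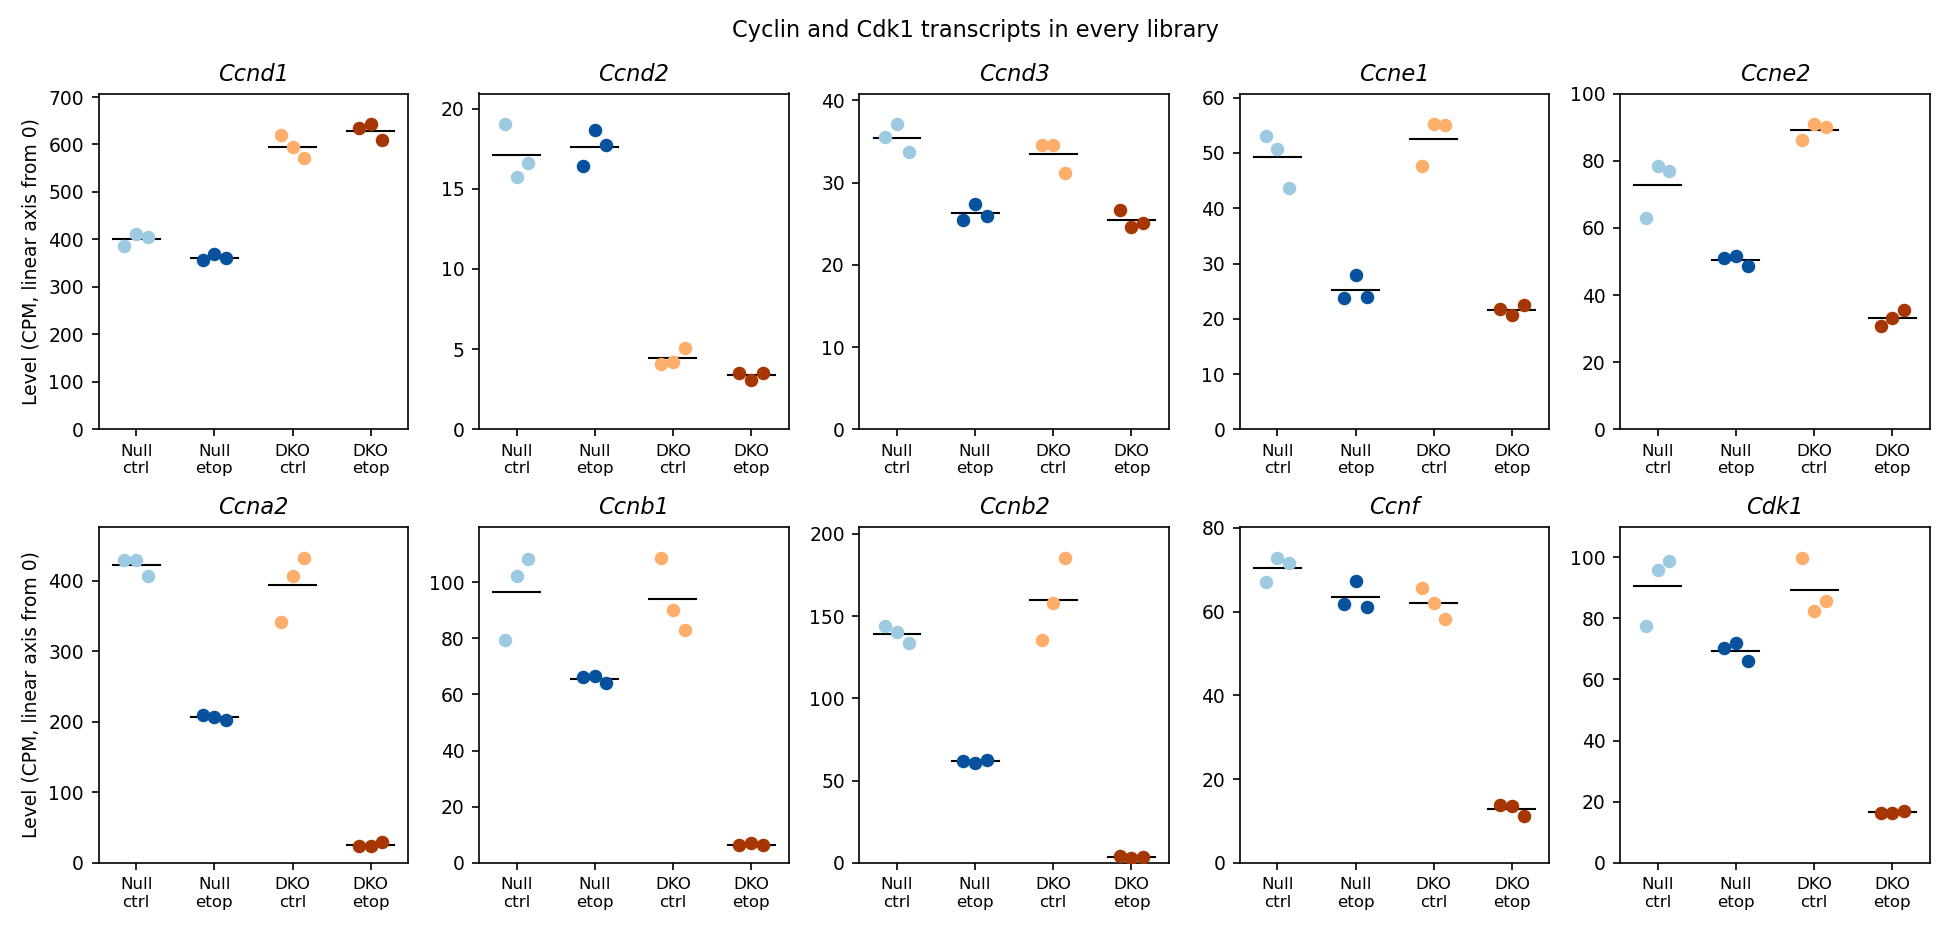
Level of each gene in every library (CPM after TMM scaling, linear axes from 0), by group (Null or DKO, ctrl for control and etop for etoposide); points are libraries and the line is the mean of 3. Ccna2, Ccnb1, Ccnb2, Ccnf and Cdk1 sit far lower in the 3 DKO etoposide libraries than in any other library, whereas Ccnd1 and Ccnd2 separate by line.

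Ccnd1 and Ccnd2, encoding 2 of the 3 D-type cyclins that couple growth signals to Cdk4 and Cdk6, differed between the lines already without the drug, and in opposite directions. Ccnd1 (chr7:144929931-144939925, minus strand) stood at 387, 412 and 405 CPM in Null control and 356, 369 and 361 CPM in Null etoposide libraries. The DKO libraries held it at 619, 594 and 571 CPM in control and 634, 643 and 609 CPM after etoposide. Every DKO library was above every Null library, and the 2 DKO groups overlapped each other. Ccnd1 was higher in DKO cells by 0.57 ± 0.06 in control (SE, log2 scale, adjusted p = 3.14e-05) and by 0.80 ± 0.06 after etoposide (adjusted p = 9.29e-07). Its response to the drug did not pass the test in either line (−0.15, 95% interval −0.29 to −0.01, adjusted p = 0.0851 in Null; 0.08, −0.06 to 0.22, adjusted p = 0.357 in DKO), although the 3 Null etoposide libraries lay below the 3 Null controls. The interaction was 0.23 ± 0.09 (adjusted p = 0.161). By DESeq2 the Null response (−0.16, adjusted p = 0.00246) and the interaction (0.24, adjusted p = 0.0024) passed, and without DKO control replicate 1 the Null response passed (adjusted p = 0.0434).

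Ccnd2 (chr6:127125162-127152193, minus strand) was the least abundant of the 10 per length in every group. It stood at 19.0, 15.7 and 16.6 CPM in Null control and 16.4, 18.7 and 17.7 CPM in Null etoposide libraries. DKO control libraries gave 4.08, 4.22 and 5.09 CPM and DKO etoposide libraries 3.53, 3.10 and 3.50 CPM. The lines did not overlap, the Null groups overlapped each other, and the DKO etoposide libraries were all below the DKO controls. Ccnd2 was lower in DKO cells by −1.93 ± 0.12 in control (adjusted p = 1.3e-07) and by −2.36 ± 0.12 after etoposide (adjusted p = 1.13e-08). Etoposide lowered it in DKO cells (−0.39 ± 0.12, adjusted p = 0.0175) to 75.6% of the control mean, and the Null response did not pass (0.04 ± 0.12, adjusted p = 0.822). The interaction was −0.43 ± 0.16 (adjusted p = 0.144). The DKO call was lost when the 2 DKO groups were fitted alone (adjusted p = 0.069). It was also lost when DKO control replicate 3 was left out (adjusted p = 0.0717) or DKO etoposide replicate 2 (adjusted p = 0.0821).

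Ccnd3 (chr17:47505051-47599691, plus strand), the remaining D-type cyclin, fell in both lines and was not told apart between them. It stood at 35.5, 37.1 and 33.8 CPM in Null control and 25.4, 27.4 and 25.9 CPM in Null etoposide libraries. The corresponding DKO values were 34.6, 34.6 and 31.2 CPM in control and 26.6, 24.6 and 25.1 CPM in etoposide libraries. Within each line the drug separated the libraries, and within each treatment the lines overlapped. The responses were −0.43 ± 0.07 (adjusted p = 0.000537) in Null and −0.39 ± 0.07 (adjusted p = 0.0011) in DKO cells. The interaction was 0.04, with a 95% interval from −0.19 to 0.27 (adjusted p = 0.901). Its exons overlap Bysl, a ribosome biogenesis gene on the opposite strand. Bysl could supply an estimated 20.0% of Ccnd3 counts in DKO etoposide libraries under conditions that are not known to hold. These are that strand was ignored, reads in shared exon bases were credited to Ccnd3, and Bysl reads were spread evenly over its exons. If counting set such shared reads aside, Bysl would supply none. The libraries were made with a kit that preserves strand, and whether the counting used it is not given in the sources used here.

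The E-type cyclins, which activate Cdk2 for DNA synthesis, fell in both lines, and the response of Ccne2 but not that of Ccne1 was shown to differ between them. Ccne1 (chr7:38097984-38107534, minus strand) stood at 53.1, 50.8 and 43.7 CPM in Null control and 23.8, 28.0 and 24.0 CPM in Null etoposide libraries. In DKO cells it stood at 47.6, 55.2 and 55.0 CPM in control and 21.7, 20.6 and 22.6 CPM in etoposide libraries. The control groups overlapped, and the DKO etoposide libraries all lay just below the Null etoposide libraries. Ccne1 fell by 0.96 on the log2 scale in Null (SE 0.10, adjusted p = 8.76e-06) and by 1.28 in DKO cells (SE 0.10, adjusted p = 5.99e-07). Neither the difference between lines after etoposide (−0.22 ± 0.10, adjusted p = 0.108) nor the interaction (−0.32 ± 0.14, adjusted p = 0.215) passed. The former passed when only the 2 etoposide groups were fitted (adjusted p = 0.0423).

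Ccne2 (chr4:11191351-11204779, plus strand) stood at 63.0, 78.3 and 77.0 CPM in Null control and 51.1, 51.5 and 48.7 CPM in Null etoposide libraries. The DKO libraries held it at 86.1, 91.0 and 90.2 CPM in control and 30.7, 33.3 and 35.6 CPM after etoposide. No groups overlapped, so that DKO cells were above Null cells without the drug and below them with it. Ccne2 fell to 69.3% of the control mean in Null (−0.52 ± 0.09, adjusted p = 0.000532) and to 37.3% in DKO cells (−1.42 ± 0.09, adjusted p = 8.55e-08). The interaction was −0.90 ± 0.13 (adjusted p = 0.000539), and the difference after etoposide was −0.61 ± 0.09 (adjusted p = 0.000203). The difference in control cells was 0.30 ± 0.09 (adjusted p = 0.0346) and did not pass under 10 of the 22 alternatives. These were library size alone (adjusted p = 0.0892), no filter (0.0711), the 2 groups fitted alone (0.143), and the removal of Null control replicate 1 (log2 difference 0.20), DKO control replicates 2 or 3, any Null etoposide replicate or DKO etoposide replicate 2 (adjusted p from 0.0538 to 0.129). The gene shares exon bases with Ints8 on the opposite strand. Under the same conditions as for Bysl, Ints8 could supply an estimated 13.9% of Ccne2 counts in DKO etoposide libraries. With the estimated share taken away the interaction was −0.99 (adjusted p = 0.000355).

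Ccna2, encoding the cyclin A of dividing somatic cells, was the most abundant of the 10 genes per length in Null control cells and fell in both lines. Ccna2 (chr3:36564865-36572150, minus strand) stood at 429, 430 and 407 CPM in Null control and 210, 207 and 203 CPM in Null etoposide libraries. DKO control libraries gave 342, 407 and 433 CPM and DKO etoposide libraries 24.0, 23.2 and 29.2 CPM. The control groups overlapped, and each etoposide group lay below them without overlap. Null cells kept 49.0% of the control mean (−1.03 ± 0.10, adjusted p = 5.85e-06) and DKO cells 6.47% (−3.95 ± 0.10, adjusted p = 2.28e-11). The interaction was −2.92 ± 0.14 (adjusted p = 4.41e-08), and the difference between control lines did not pass (−0.11 ± 0.10, adjusted p = 0.556). Ccna2 overlaps Exosc9, a gene of the RNA exosome on the opposite strand. Under the same conditions as for Bysl, Exosc9 could supply an estimated 27.9% of Ccna2 counts in DKO etoposide and 2.74% to 4.26% in the other groups. With the estimated share taken away, the DKO response was −4.38 and the interaction −3.32.

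The B-type cyclins, the mitotic partners of Cdk1, fell in both lines, and in DKO cells Ccnb2 had the third lowest response of all 18066 genes, while Ccnb1 fell about as deeply as Ccna2. Ccnb2 (chr9:70407692-70421547, minus strand) stood at 144, 140 and 134 CPM in Null control and 62.2, 60.8 and 62.4 CPM in Null etoposide libraries. In DKO cells it stood at 135, 158 and 186 CPM in control and 4.09, 2.90 and 3.63 CPM in etoposide libraries, the last from 225, 166 and 221 counts. The control groups overlapped, and no etoposide library of either line reached a control library or a library of the other line. Null cells kept 44.3% of the control mean (−1.17 ± 0.13, adjusted p = 1.32e-05) and DKO cells 2.22% (−5.47 ± 0.13, adjusted p = 1.02e-11). The interaction was −4.30 ± 0.18 (adjusted p = 1.12e-08). Control lines were not told apart (0.18, 95% interval −0.09 to 0.46, adjusted p = 0.385).

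Ccnb1 (chr13:100778650-100786570, minus strand) stood at 79.4, 102 and 108 CPM in Null control and 66.2, 66.5 and 64.1 CPM in Null etoposide libraries. The corresponding DKO values were 109, 90.2 and 82.9 CPM in control and 6.32, 6.94 and 6.26 CPM in etoposide libraries. The arrangement of groups was that of Ccnb2, with a shallower loss in Null cells. They kept 67.8% of the control mean (−0.55 ± 0.12, adjusted p = 0.00322), whereas DKO cells kept 6.93% (−3.83 ± 0.12, adjusted p = 1.39e-10). The interaction was −3.28 ± 0.17 (adjusted p = 8.57e-08), and control lines were not told apart (−0.04, 95% interval −0.30 to 0.23, adjusted p = 0.884). Ccnb1 has near-identical processed pseudogenes, among them Ccnb1-ps (99.2% identity over 1287 bases) and Gm12856 (98.1%), each with at most 6 counts in any library. The study kept uniquely mapped read pairs, so reads shared with these copies were lost and the Ccnb1 level is uncertain, while the pseudogenes themselves took few counts in any group.

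Cdk1 and Ccnf passed the test between the lines after the drug and not before it. Cdk1, the mitotic kinase itself (chr10:69335146-69352938, minus strand), stood at 77.4, 95.8 and 98.7 CPM in Null control and 70.2, 72.0 and 66.0 CPM in Null etoposide libraries. In DKO cells it stood at 99.9, 82.3 and 85.7 CPM in control and 16.3, 16.2 and 16.9 CPM in etoposide libraries. The control groups overlapped and the DKO etoposide libraries were nearly equal to each other. Null cells kept 76.6% of the control mean (−0.38 ± 0.10, adjusted p = 0.00956) and DKO cells 18.4% (−2.43 ± 0.10, adjusted p = 1.5e-09). The interaction was −2.05 ± 0.14 (adjusted p = 9.7e-07). In control cells the lines were not told apart (−0.02, 95% interval −0.24 to 0.20, adjusted p = 0.939).

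Ccnf (chr17:24222198-24251484, minus strand) stood at 67.0, 72.9 and 71.7 CPM in Null control and 61.9, 67.2 and 61.2 CPM in Null etoposide libraries. The DKO libraries held it at 65.7, 62.1 and 58.3 CPM in control and 13.8, 13.6 and 11.2 CPM after etoposide. The Null groups overlapped each other, while the DKO etoposide libraries stood apart from all others. Etoposide lowered Ccnf to 20.8% of the control mean in DKO cells (−2.27 ± 0.09, adjusted p = 1.15e-09), whereas the Null response did not pass (−0.15, 95% interval −0.35 to 0.04, adjusted p = 0.203). The interaction was −2.11 ± 0.13 (adjusted p = 3.04e-07). The control DKO libraries all lay below the Null controls, yet that difference did not pass (−0.19 ± 0.09, adjusted p = 0.193).

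**Figure D2:**
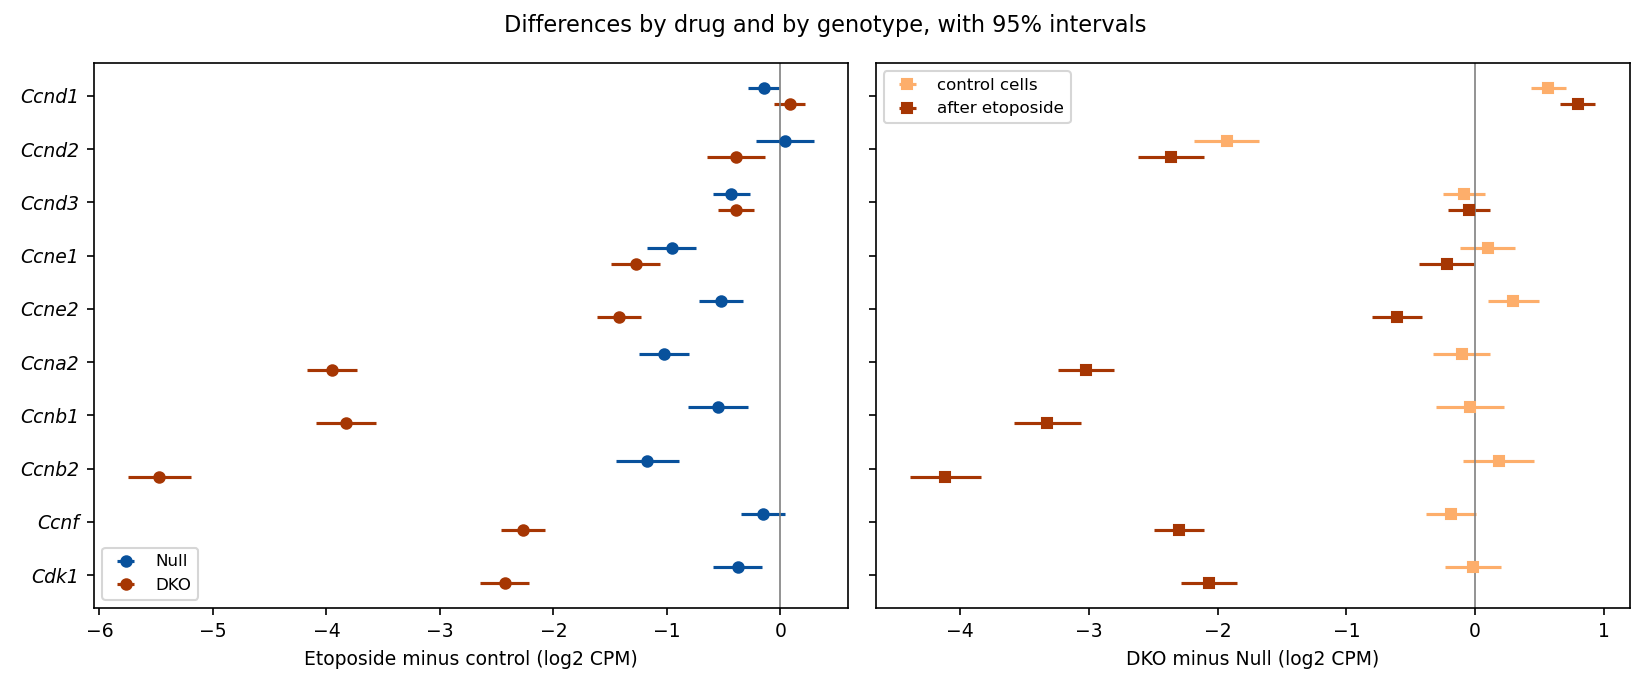
Log2 differences in CPM with 95% intervals, for etoposide minus control in each line (left) and for DKO minus Null in each treatment (right); symbols are the estimates of limma-trend over 12 libraries. From Ccne2 down to Cdk1 the DKO estimates on the left lie below those of Null, whereas the control differences on the right lie near 0 except for Ccnd1, Ccnd2 and Ccne2.

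**Figure D3:**
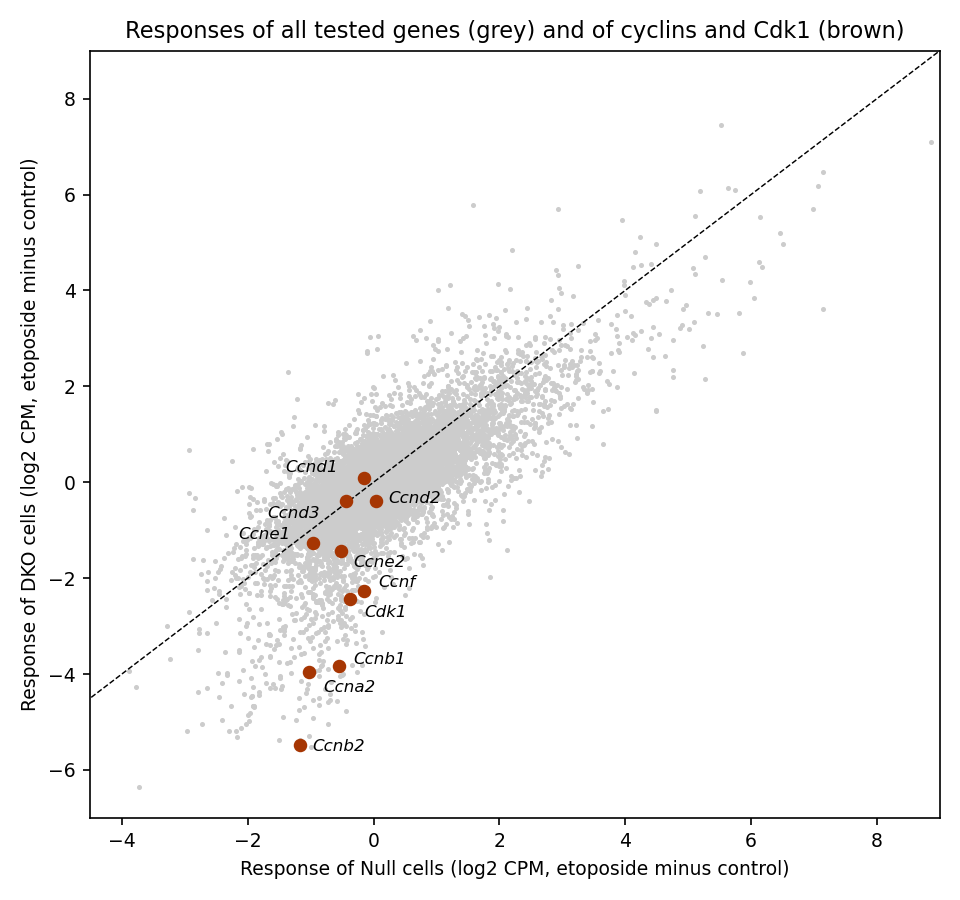
Response to etoposide in DKO cells against the response in Null cells (log2 CPM, etoposide minus control) for all 18066 genes tested (grey) and for the cyclins and Cdk1 (brown), with the line of equal response dashed. Ccnb2 lies lowest of the 10 at −5.47 in DKO cells against −1.17 in Null cells, and Ccnd3, Ccnd1 and Ccne1 lie nearest the line.

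Read along the cycle, the percentage of the control mean that remained in DKO cells was 106% for Ccnd1, 75.6% for Ccnd2 and 76.1% for Ccnd3, then 41.1% for Ccne1 and 37.3% for Ccne2. It was 6.47% for Ccna2, 6.93% for Ccnb1 and 2.22% for Ccnb2, with 20.8% for Ccnf and 18.4% for Cdk1. In Null cells the same percentages lay between 44.3% (Ccnb2) and 103% (Ccnd2). The D-type genes thus kept at least 74.0% in both lines.

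Levels of the 10 genes were compared with each other after division by the exon length of the gene (CPM per kb of exon). That length is the union of exons of all annotated transcripts, from 1531 bases for Ccnb2 (1 transcript) to 9409 for Ccnd2 (8 transcripts). The transcripts in use may be shorter, so the order between genes depends in part on annotation. In DKO etoposide cells Ccnb1 was above Ccnb2 before the division (6.51 and 3.54 CPM) and below it after. In Null control cells Ccna2 led with 103 ± 3.15, followed by Ccnb2 with 91.0 ± 3.25 and Ccnd1 with 85.2 ± 2.71 CPM per kb (SD, n = 3), and the libraries of these neighbours did not overlap. Ccnb1, Ccne2, Ccne1 and Cdk1 came next at 22.9 to 18.4 CPM per kb, and each overlapped its neighbour within these 4, while Cdk1 did not overlap Ccnf. Ccnf (9.04), Ccnd3 (4.04) and Ccnd2 (1.82 CPM per kb) followed apart from each other. In DKO etoposide cells the order was led by Ccnd1 (133 ± 3.81), then Ccne2 (9.50 ± 0.704), Ccne1 (8.13 ± 0.364) and Ccna2 (6.24 ± 0.796 CPM per kb), all without overlap of neighbours. Cdk1 (3.34), Ccnd3 (2.90) and Ccnb2 (2.31) came next, also apart. Ccnf (1.65) and Ccnb1 (1.54 CPM per kb) overlapped, and Ccnd2 (0.359) was last. With the share estimated for overlapping genes taken away, Ccne2 (8.18) and Ccne1 (8.13), and likewise Ccnd3 (2.32) and Ccnb2 (2.31 CPM per kb), overlapped. These neighbours are therefore not set in order.

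**Figure D4:**
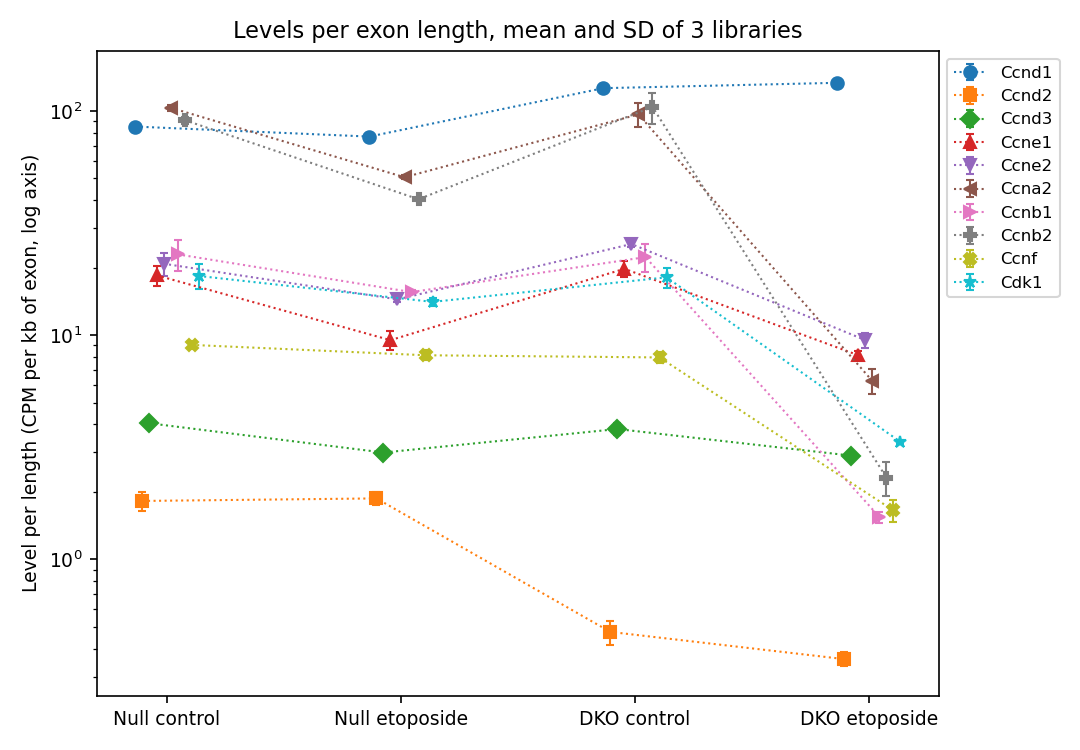
Level per exon length (CPM per kb of exon, log axis) of each gene in the 4 groups; symbols are means and bars the SD of 3 libraries, and the dotted lines only join the groups of 1 gene. Ccnd1 stays between 76.8 and 133 CPM per kb, whereas Ccna2, Ccnb2 and Ccnb1 drop to 6.24, 2.31 and 1.54 CPM per kb in DKO etoposide.

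Within a subfamily the make-up also shifted. The sizes of these shares depend on the exon lengths used, and that of Ccnb1 also on reads lost to its pseudogenes. Ccnd1 supplied 93.6 ± 0.389% of the D-type total per length in Null control and 94.1 ± 0.172% in Null etoposide libraries, and 96.7 ± 0.0733% and 97.6 ± 0.123% in the corresponding DKO libraries. Ccnd2 supplied 2.01 ± 0.258% and 2.29 ± 0.104% in Null and 0.365 ± 0.0594% and 0.263 ± 0.0239% in DKO cells. Of the B-type total, Ccnb1 made up 20.1 ± 3.07% in Null control and 27.8 ± 0.622% in Null etoposide libraries. In DKO cells its share was 17.9 ± 4.37% in control and 40.3 ± 5.49% after etoposide, where every library lay above every library of the other groups. Ccne1 made up 39.6% to 47.1% of the E-type total in the group means, with overlap between the control groups.

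The kinases and adaptors that work with these cyclins moved in part. Of 8 (Cdk2, Cdk4, Cdk6, Cdk7, Ccnh, Mnat1, Cks1b and Cks2), 3 had a lower interaction and none a higher one (6.39% and 3.07% of all genes), with a median of 0.17 against −0.01 for all genes. In Null cells 3 fell and none rose (18.7% and 20.9% of all genes), and in DKO cells 5 fell and 1 rose (19.1% and 20.2%). Cks2, a small adaptor of Cdk1, stood at 33.9, 37.1 and 35.3 CPM in Null control and 31.5, 34.0 and 34.4 CPM in Null etoposide libraries, against 8.65, 7.99 and 8.48 CPM in DKO etoposide libraries. Its interaction was −1.96 (adjusted p = 1.06e-07), followed by Cdk2, the partner of cyclins E and A, at −0.96 (adjusted p = 1.9e-05) and Cks1b, the other adaptor, at −0.95 (adjusted p = 0.00504). Cdk4, the partner of D-type cyclins, was at 287 ± 15.1, 288 ± 7.27, 253 ± 5.65 and 289 ± 9.91 CPM in Null control, Null etoposide, DKO control and DKO etoposide cells, with an interaction of 0.19 (adjusted p = 0.27). Cdk6, the other D-type partner, named after its values were seen, stood at 257, 216 and 197 CPM in Null control and 80.4, 71.2 and 81.1 CPM in Null etoposide libraries. The DKO libraries held Cdk6 at 346, 475 and 502 CPM in control and 219, 198 and 245 CPM after etoposide. It fell in both lines (−1.52, adjusted p = 4.09e-06 in Null; −0.98, adjusted p = 0.000145 in DKO) and was higher in DKO cells without the drug (0.97, adjusted p = 0.000303) and with it (1.51, adjusted p = 4.51e-06). Its interaction did not pass (0.53, adjusted p = 0.141). Cdk7, the kinase that activates the others, had an interaction of 0.26 (adjusted p = 0.511) and was the higher in etoposide-exposed DKO cells (0.50 against Null, adjusted p = 0.0102).

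Of 7 CDK inhibitor genes, 4 were tested. Cdkn1c and Cdkn2a did not pass the filter, and Cdkn2b was not analysed here. Cdkn1a, which encodes p21, the p53-induced inhibitor, stood at 53.2, 50.0 and 41.4 CPM in Null control and 394, 386 and 396 CPM in Null etoposide libraries. DKO control libraries gave 90.1, 119 and 112 CPM and DKO etoposide libraries 339, 285 and 340 CPM. It rose in both lines (3.03, adjusted p = 2.59e-09 in Null; 1.59, adjusted p = 4.23e-07 in DKO), started higher in control DKO cells (1.15, adjusted p = 1.55e-05) and was not told apart after the drug (−0.29, adjusted p = 0.0779). Its interaction was −1.44 (adjusted p = 0.000118). Cdkn2c and Cdkn2d, inhibitors of Cdk4 and Cdk6, had interactions of −1.55 (adjusted p = 1.53e-06) and −1.17 (adjusted p = 0.00364) and fell in both lines, so 3 of the 4 had a lower interaction, against 6.39% of all genes, Cdkn1a from a smaller rise and the others from a deeper fall.

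Of the 5 genes that set the inhibitory phosphorylation of Cdk1 (Cdc25a, Cdc25b, Cdc25c, Wee1 and Pkmyt1), 3 fell in Null and 5 in DKO cells, and 4 had a lower interaction, against 18.7%, 19.1% and 6.39% of all genes. Both the activating phosphatase Cdc25c (−3.98, adjusted p = 2.95e-07) and the inhibitory kinases Pkmyt1 (−1.27, adjusted p = 1.91e-05) and Wee1 (−1.05, adjusted p = 0.00017) were among them. Cdc25c stood at 13.1, 12.1 and 12.8 CPM in Null etoposide and 0.818, 0.787 and 0.592 CPM in DKO etoposide libraries, with no overlap.

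Of 9 genes of cyclin destruction, 5 fell in Null and 8 in DKO cells, none rose, and 3 had a lower interaction. The shares of all genes were 18.7%, 19.1% and 6.39%. These were Cdc20, an activator of the anaphase-promoting complex (−2.95, adjusted p = 3.74e-07), its E2 enzyme Ube2c (−2.48, adjusted p = 9.09e-05) and its inhibitor Fbxo5 (−2.00, adjusted p = 3.37e-07). The other 6 did not pass. Of 5 factors that act on promoters of G2 and M genes (Foxm1, Mybl2, Nfya, Nfyb and Nfyc), 3 had a lower interaction, against 6.39% of all genes. Mybl2, a MuvB partner, had −1.95 (adjusted p = 1.66e-06), the forkhead factor Foxm1 −1.64 (adjusted p = 0.000324) and Nfyb, an NF-Y subunit, −1.13 (adjusted p = 4.14e-05). Nfyb rose in Null (0.52, adjusted p = 0.000293) and fell in DKO cells (−0.61, adjusted p = 8.21e-05), whereas Foxm1 and Mybl2 fell in both.

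Of 17 cyclins outside the classical set 14 were tested, with 2 lower and 1 higher in the interaction (6.39% and 3.07% of all genes). In Null cells 3 fell and 4 rose, and in DKO cells 2 fell and 3 rose, near the shares of all genes (18.7% and 20.9% in Null, 19.1% and 20.2% in DKO). The median interaction was −0.09. Ccng1, a p53 target, stood at 129, 131 and 132 CPM in Null control and 2008, 1868 and 1911 CPM in Null etoposide libraries. In DKO cells it stood at 183, 203 and 215 CPM in control and 1300, 1313 and 1419 CPM in etoposide libraries, with an interaction of −1.13 (adjusted p = 1.76e-05). Ccng2, its relative, rose in Null (0.38, adjusted p = 0.00467) and fell in DKO cells (−0.68, adjusted p = 7.33e-05), with an interaction of −1.06 (adjusted p = 0.000153). Ccnj was the single gene of the list with a higher interaction (0.66, adjusted p = 0.0168).

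**Figure D5:**
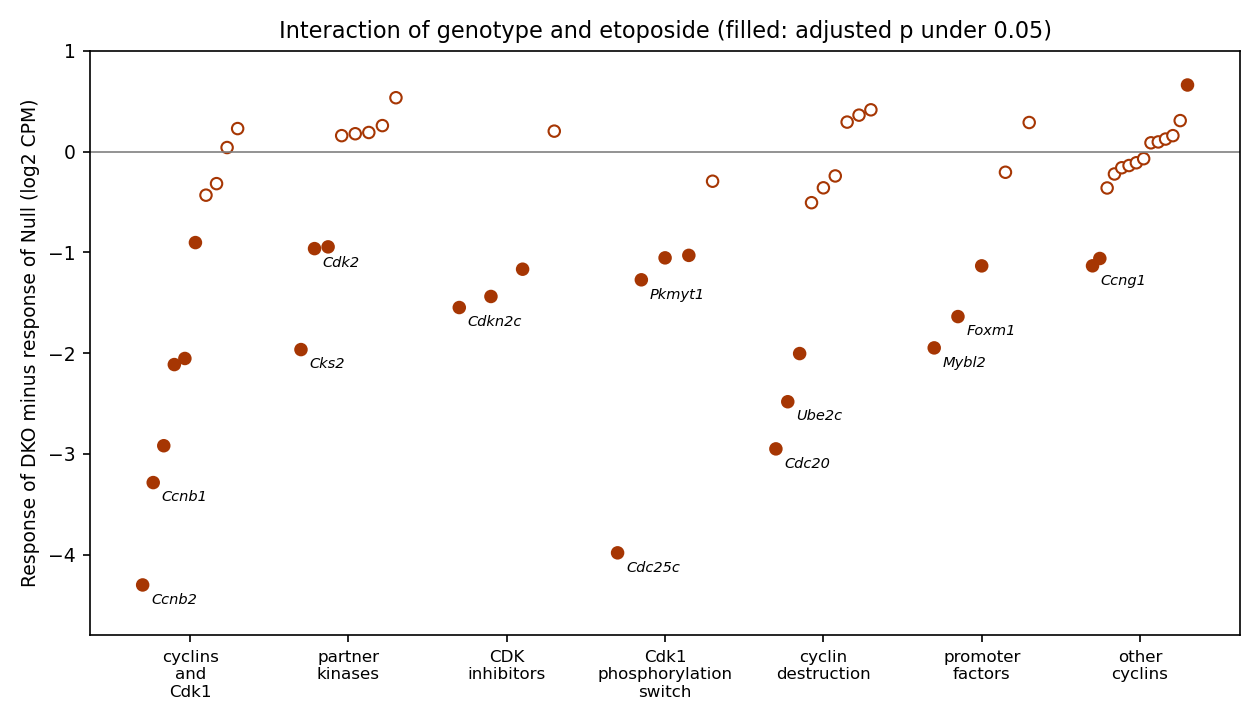
Interaction of genotype and etoposide (DKO response minus Null response, log2 CPM) for the cyclins and Cdk1 and for the 6 groups of related genes; each point is a gene and filled points have an adjusted p under 0.05. Ccnb2 at −4.30 and Cdc25c at −3.98 are lowest, and Ccnj at 0.66 is the single filled point above 0.

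The genes with patterns most like those of 3 of the cyclins were sought among 9131 genes of mean CPM of at least 10, by Pearson correlation of log2 CPM over the 12 libraries. The 12 libraries fall into 4 groups, so the values mostly restate the group means and are given as a description. The 10 genes themselves were left out, although Cdk1 correlated with Ccnb1 at r = 0.9987. Nearest to Ccnb1 among the rest were Kif22 (r = 0.999), Cdc25c (0.9987) and Pbk (0.9985). Nearest to Ccne2 were Anln (0.9916), Pif1 (0.9878) and Pole2 (0.9867). Nearest to Ccnd1 were Bin1 (0.993), Cdc37 (0.9919) and Fam167b (0.9905). Kif22, a chromosome-associated kinesin, averaged 44.9, 31.6, 41.7 and 5.17 CPM in Null control, Null etoposide, DKO control and DKO etoposide cells, whereas Cdc37, a kinase chaperone partner, averaged 125, 114, 186 and 204 CPM.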

How the data were processed

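RNA-seq was carried out on 12 libraries of RAW264.7 cells. The authors aligned reads with HISAT2 and kept uniquely mapped pairs. Their methods name HTSeq on GENCODE, whereas the submitters' processing notes list featureCounts and mm10, and this was not settled. The release and the strand setting are not given in the sources used here, nor which of 2 RNA kits made which library, and controls are called untreated in the labels and DMSO-treated in the methods. The deposited table holds unnormalized counts for each gene and library. Symbols and coordinates came from GENCODE M21 (GRCm38), by identifier without version. Genes were kept with filterByExpr of edgeR 4.0.16 (18066 of 32688, 99.96% of counts), scaled by TMM and tested on log2 CPM (prior count 3) with limma-trend of limma 3.58.1 (robust; R 4.3.3), with a mean for each of the 4 groups and 8 residual degrees of freedom. Calls use a Benjamini-Hochberg adjusted p under 0.05. The procedure was tested on simulated data. Alternatives were edgeR quasi-likelihood, DESeq2 1.42.0, limma-voom, other scalings, filters and prior counts, a replicate block, fits of 2 groups, leaving out each library, and a correction for overlapping genes, also of the order of levels, that was added after seeing the data. Named genes were all 10 members, Tfeb, Tfe3, Cdk4, Cdk7, Cdkn1a and, in each list, up to 3 genes with the largest called interaction, besides the 3 genes most like Ccnb1, Ccne2 and Ccnd1 and genes that overlap or copy a member. Cdk6 and, of the marker lists, Fcgr1, Col1a1 and Dcn fall outside this rule and were named after their values were seen. The members and lists were chosen with earlier results of these data known. No pair of replicates was a repeated library. The ratio of the variation within a pair to that from counting alone, a median over genes of at least 200 counts, was 3.4 to 53.6.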

Additional observations from a re-analysis of the deposited data

Results flagged for a closer look

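For 6 of the 10 genes the response to etoposide differed between DKO and Null cells by a test of the difference itself (limma-trend, adjusted over 18066 genes). The DKO response was below the Null response by −4.30 on the log2 scale for Ccnb2, −3.28 for Ccnb1, −2.92 for Ccna2, −2.11 for Ccnf, −2.05 for Cdk1 and −0.90 for Ccne2. In each of these genes the 3 DKO etoposide libraries lay below the 3 Null etoposide libraries. Each call passed in all alternatives run, with the highest adjusted p being 0.00329 for Ccne2. The single lines used for each genotype and the unknown share of cells at each stage of the cycle were not tested.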

How the results depend on the processing

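Over 22 alternatives, 1073 of the 1090 values for the 10 genes in the 5 comparisons kept their side of the threshold, 13 lost the call and 4 gained it. No called value changed sign. Of the values that did not pass, 10 turned sign when a library was left out, and none of these passed in either fit: Ccnd2 in the Null response (−0.02 and −0.00), Ccnb1 (0.01 to 0.05) and Cdk1 (0.01 to 0.05) between control lines, and Ccnd3 in the interaction (−0.01). The libraries were Null control replicates 2 and 3, DKO control replicates 2 and 3 and Null etoposide replicate 2. The calls that changed were those of Ccnd1, Ccnd2, Ccne1 and Ccne2 given above, and the cause was not tested. The number of the 10 genes higher in control DKO cells was 1 in place of 2 with library size alone, without the filter on low counts and when only the 2 groups were fitted, and 1 to 2 when a library was left out. The 7 libraries whose removal gave 1 were Null control replicate 1, DKO control replicates 2 and 3, all 3 Null etoposide replicates and DKO etoposide replicate 2. Over all genes, control DKO cells had 892 lower and 1139 higher calls with 2 groups fitted, where fewer residual degrees of freedom remained, and 1136 to 2290 lower calls when a library was left out, the highest without DKO control replicate 1. By DESeq2 1 of the 10 genes, Ccnd1, and 876 of all genes had a higher interaction. Leaving out a library gave 350 to 809 higher interactions over all genes, with 350 without Null etoposide replicate 3 and 368 without Null control replicate 2. The median Null response of all genes moved to 0.11 without the filter. With the share estimated for overlapping genes taken away, no call for the 10 genes changed.

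The labels number replicates 1 to 3 in each group. Same-numbered libraries did not as a rule deviate together, since 1 of 18 correlations was over 0.1 (range −0.542 to 0.394). Of these, 6 were best with their own number. Some libraries of different number did deviate together, as Null control replicate 3 with DKO control replicate 1 (r = 0.58). DKO control replicate 1 also did so with DKO etoposide replicate 2 (0.512), and deviated oppositely to DKO etoposide replicate 3 (−0.494). A replicate block by number does not account for such shared deviation, whose cause was not tested. With the replicate block, 7 of the 10 genes fell in Null and 9 in DKO cells, 1 was lower and 2 higher in control DKO cells, 7 lower and 1 higher after etoposide, and 6 had a lower interaction, as without it. Depth set little limit here, since the lowest count of the 10 genes was 166.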
